A study of Homo sapiens with 12 samples.

Results

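Cells take up, store, release and export iron through a small set of proteins, and lipid peroxidation driven by iron can end in ferroptosis, a form of cell death. The genes described here are 10 of the 58735 genes in the deposited count table, found by their gene names. They are FTH1 and FTL (the heavy and light chains of ferritin, the iron store), TFRC (the transferrin receptor, which brings iron into the cell), SLC11A2 (DMT1, which carries ferrous iron across membranes), SLC40A1 (ferroportin, the exporter of iron), NCOA4 (the receptor that sends ferritin to the lysosome), IREB2 and ACO1 (the iron regulatory proteins IRP2 and IRP1), ACSL4 (which loads polyunsaturated fatty acids into lipids and favours ferroptosis) and AIFM2 (FSP1, which reduces coenzyme Q and guards against ferroptosis). The cells were HaCaT, immortalized keratinocytes of human skin, and TIGK, immortalized keratinocytes of human gingiva, without treatment or after 3 h in 5 mM H2O2. Polyadenylated RNA was sequenced from 3 samples of each of the 4 groups, 12 libraries in all. Cells of all groups were grown to high confluency in DermaLife K keratinocyte medium, which the study's methods describe as supplemented with apo-transferrin, the iron-free form of the ligand of TFRC. Each tissue is represented by 1 immortalized line, so that a difference between the lines and a difference between skin and gingiva cannot be told apart.

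In iron-poor cells the iron regulatory proteins bind short RNA hairpins, the iron-responsive elements. Binding in a 5′ UTR blocks translation of a storage or export mRNA, and binding in the 3′ UTR of TFRC protects that mRNA from decay. RNA counts therefore show one side of this control alone, since a change in translation leaves mRNA levels as they are. Keratinocytes of the skin lose iron when they are shed, and both epithelia meet peroxides from outside.

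The hairpins are shown because the iron regulatory proteins act on mRNAs through them, and the search finds only those of a strict form. The reference transcripts (GENCODE release 44, GRCh38, 1 MANE Select transcript per gene) were searched on the sense strand for the loop CAGTGN closed by 5 paired bases (G:U pairs allowed). A C had to stand below them on the 5′ side, and whether it was unpaired was not checked. Matches lay in 4 of the 10 genes. FTH1, FTL and SLC40A1 had 1 match each in the 5′ UTR, and TFRC had 4 in the 3′ UTR. In the 30 bases printed for each, read 5′ to 3′ on the strand of the gene, capitals mark the loop.
FTH1, 5′ UTR, chr11:61967573-61967602, minus strand: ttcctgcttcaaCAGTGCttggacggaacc
FTL, 5′ UTR, chr19:48965335-48965364, plus strand: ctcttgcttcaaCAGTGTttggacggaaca
SLC40A1, 5′ UTR, chr2:189580660-189580689, minus strand: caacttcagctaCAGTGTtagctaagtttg
TFRC, 3′ UTR, chr3:196050978-196051007, minus strand: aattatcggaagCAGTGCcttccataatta
TFRC, 3′ UTR, chr3:196050574-196050603, minus strand: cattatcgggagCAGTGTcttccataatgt
TFRC, 3′ UTR, chr3:196050509-196050538, minus strand: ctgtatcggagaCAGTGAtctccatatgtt
TFRC, 3′ UTR, chr3:196050462-196050491, minus strand: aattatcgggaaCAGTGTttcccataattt
Among 19061 such transcripts, 0.0997% held a match in the 5′ UTR and 0.635% held one in the 3′ UTR. A match is a description of the letters, and for the other 6 genes the search says only that they are not in the UTRs of the transcript searched. Elements of another form or in other transcripts of a gene would be missed, so the search cannot say that these 6 genes escape the iron regulatory proteins.

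Total counts per library ranged from 30426401 to 49034244, and all 10 genes passed the filter of a mean raw count of at least 10, which left 16618 genes to test. Levels are given as normalized counts, scaled to the mean library size after TMM normalization, and comparisons come from the quasi-likelihood test of edgeR, with p-values adjusted after Benjamini and Hochberg across the 16618 genes and a limit of 0.01. Replicates are separate samples in the labels, but nothing says that they were separate cultures, so p-values measure the spread between these samples only. All 11 keratinocyte markers exceeded 100 normalized counts in every group. Of 5 fibroblast markers, 1 exceeded that level in HaCaT and 2 in TIGK, with summed levels of 311 to 418 and 798 to 932, COL1A2 was at 0 in all libraries, and no marker of melanocytes, endothelium or leukocytes exceeded it. The share of counts on mitochondrial genes moved with both line and treatment, from 6.10 to 6.26% in untreated HaCaT to 3.30 to 3.51% after H2O2, and from 3.33 to 3.45% in untreated TIGK to 1.39 to 1.5% after H2O2. When mitochondrial counts were left out, every call on the 10 genes was the same.

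**Figure D1:**
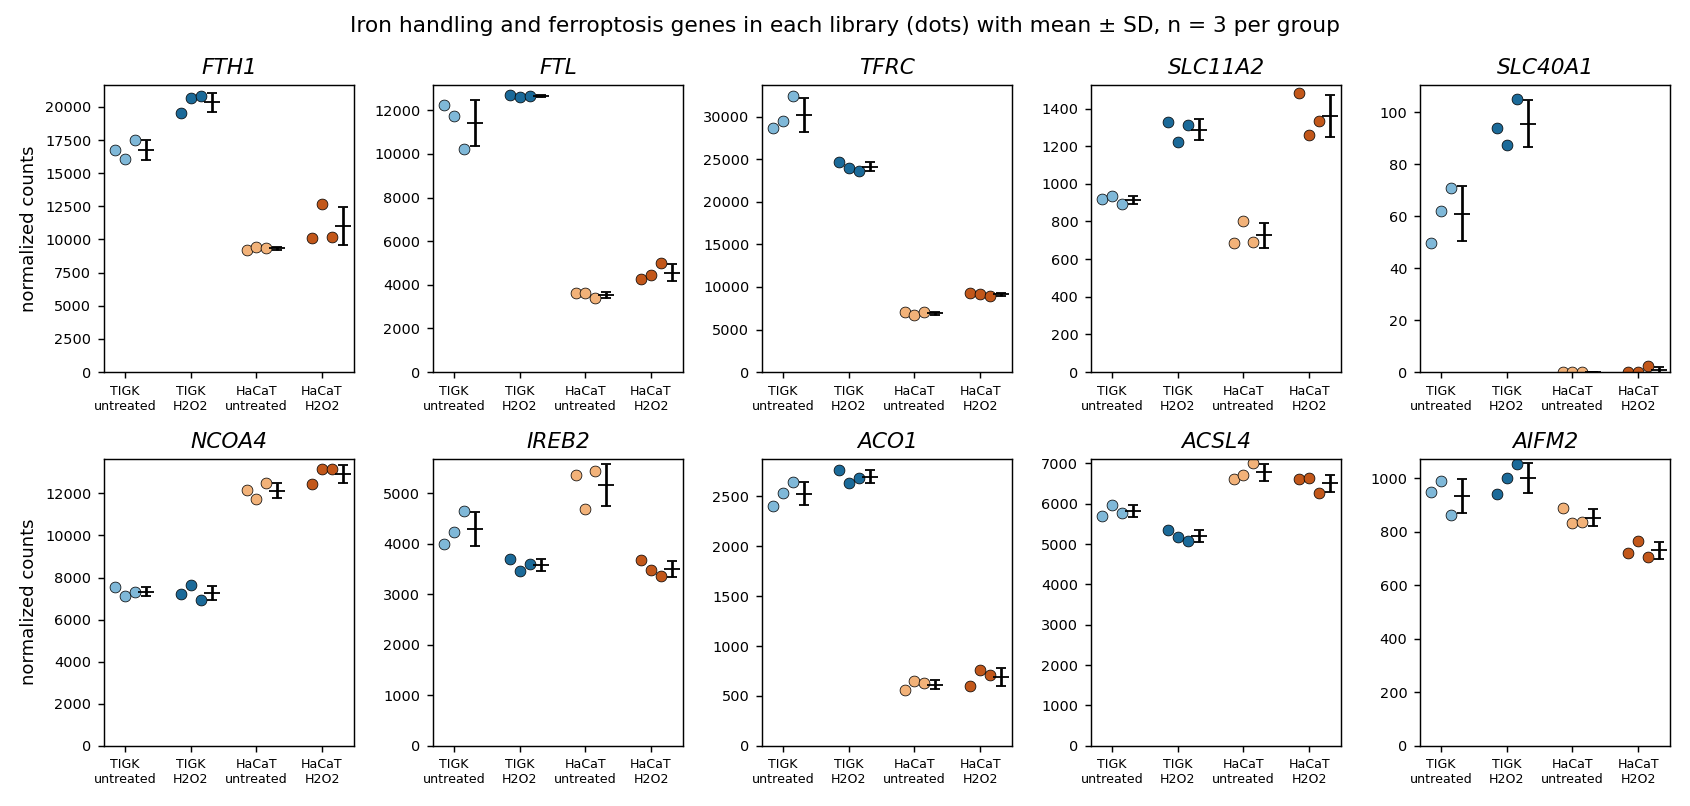
Normalized counts (vertical axes, from 0) of the 10 genes in each of the 12 libraries, with TIGK in blue and HaCaT in orange; dots are libraries and bars show the mean ± SD of 3 libraries. TFRC falls from 28722 to 32465 down to 23662 to 24748 in TIGK and climbs from 6718 to 7042 up to 8977 to 9303 in HaCaT, and SLC40A1 is at or near 0 in HaCaT.

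After H2O2, the changes past the limit in TIGK were rises of FTH1 and SLC11A2 mRNA and falls of TFRC and IREB2 mRNA. In HaCaT they were rises of FTL, TFRC and SLC11A2 and a fall of IREB2. Treated libraries lay above untreated ones for FTH1 and FTL in both lines, and only TFRC had responses that differed past the limit. In TIGK, 2 of the 10 genes rose and 2 fell, where 10.2% of all genes tested rose and 12.9% fell. In HaCaT, 3 rose and 1 fell, where 18.9% of all genes rose and 15.2% fell. With so few genes, these counts lie near the background. The balance over all genes in HaCaT, 3135 higher and 2529 lower, turned to 2522 and 2820 without mitochondrial counts, to 2551 and 2824 with upper quartile scaling and to 2148 and 2520 with the HaCaT groups fitted alone. The median log2 fold change of the 10 genes was 0.0962 in TIGK, against 0.00842 over all genes tested, and 0.178 in HaCaT without SLC40A1 (0.207 with it), against 0.0375. The libraries of untreated and treated cells did not overlap for 7 of the 10 genes in TIGK and 6 in HaCaT, where the same held for 51.1% and 53.8% of all genes tested. Every change that passed the limit was below 2-fold.

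TFRC was the gene on which the lines parted. In TIGK the untreated libraries had 28722, 29481 and 32465 normalized counts and the treated ones 24748, 24030 and 23662. In HaCaT the untreated libraries had 7042, 6718 and 7013 and the treated ones 9303, 9211 and 8977. No treated library overlapped the untreated ones in either line, and the directions were opposite. TFRC mRNA fell in TIGK by 0.32 on the log2 scale (SE 0.0528, adjusted p = 0.000105, edgeR) and rose 1.32-fold in HaCaT (log2 fold change 0.40, SE 0.0535, adjusted p = 8.44e-06). The difference of the 2 responses, TIGK minus HaCaT, was -0.73 (95% interval -0.886 to -0.57, adjusted p = 3.6e-06). TFRC was the only one of the 10 genes whose responses differed past the limit; over all genes, 2.32% had a higher and 2.98% a lower response in TIGK. The balance of those calls over all genes moved with the processing, from 385 higher and 496 lower to 522 and 346 without mitochondrial counts. It was 436 and 403 with RLE scaling, 704 and 393 without HaCaT H2O2 replicate 1 and 369 and 637 without HaCaT H2O2 replicate 3. The TFRC difference kept its sign under each alternative, with an adjusted p between 8.48e-18 and 0.000187, and was not called where a change of 2-fold was also required.

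SLC11A2 rose in both lines. Its untreated TIGK libraries had 918, 935 and 891 normalized counts and the treated ones 1326, 1223 and 1314. In HaCaT the level went from 685, 805 and 689 to 1484, 1262 and 1333. Treated libraries lay above all untreated ones in both lines, by 1.41-fold in TIGK (log2 fold change 0.49, SE 0.0816, adjusted p = 0.000122) and 1.88-fold in HaCaT (0.91, SE 0.0827, adjusted p = 9.7e-08). The larger value in HaCaT did not pass as a difference of responses (-0.41, 95% interval -0.657 to -0.171, adjusted p = 0.0254).

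The ferritin chains were among the most abundant of these mRNAs, and each passed the limit in 1 line. FTH1 went from 16741, 16039 and 17532 to 19535, 20673 and 20851 normalized counts in TIGK. In HaCaT it went from 9235, 9449 and 9328 to 10137, 12643 and 10183. Treated libraries were above untreated ones in both lines, with HaCaT H2O2 replicate 2 well above the other two. FTH1 rose 1.21-fold in TIGK (log2 fold change 0.28, SE 0.0699, adjusted p = 0.00439), and the value in HaCaT was 0.23 (SE 0.0703, adjusted p = 0.0104). Both FTH1 values lie close to the limit. The TIGK call was lost without TIGK control replicate 1 (adjusted p = 0.0137) or 2 (0.0141) and without TIGK H2O2 replicate 2 (0.0105) or 3 (0.0106). The HaCaT value passed without HaCaT H2O2 replicate 1 (0.00587) or 3 (0.00246) and without TIGK control replicate 3 (0.00894). It also passed with library totals alone as scaling (0.006) and without the filter on low counts (0.0024). Without HaCaT H2O2 replicate 2 it was 0.0888 on the log2 scale, with an adjusted p of 0.216. The responses of FTH1 differed by 0.04 (95% interval -0.163 to 0.253, adjusted p = 0.834).

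FTL went from 12258, 11753 and 10237 to 12684, 12597 and 12665 normalized counts in TIGK. In HaCaT it went from 3644, 3602 and 3385 to 4249, 4427 and 4989. Untreated and treated libraries were apart in both lines, narrowly so in TIGK, where the treated libraries were nearly equal and untreated replicate 3 was low. FTL rose 1.29-fold in HaCaT (log2 fold change 0.36, SE 0.0689, adjusted p = 0.000322), and its value in TIGK was 0.15 (SE 0.0672, adjusted p = 0.0943). The difference of the responses was -0.21 (95% interval -0.416 to -0.0126, adjusted p = 0.165). FTH1 and FTL have many processed pseudogenes. Of 25 annotated FTH1 pseudogenes 19 had counts, which added up to 3.67 to 5.22% of the FTH1 count in a library, and the 5 of 16 FTL pseudogenes with counts held 0.105 to 0.613% of FTL. Adding these counts to the parent genes changed no call on FTH1 or FTL.

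Of the mRNAs of the iron sensors, IREB2 passed the limit in both lines and ACO1 in neither. IREB2, whose protein is degraded when iron is plentiful, went from 3989, 4246 and 4656 to 3700, 3462 and 3598 normalized counts in TIGK. In HaCaT it went from 5361, 4696 and 5445 to 3673, 3478 and 3366. Every treated library was below every untreated one, by a narrow margin in TIGK and a wide one in HaCaT. IREB2 fell by 0.56 on the log2 scale in HaCaT (SE 0.0671, adjusted p = 2.79e-06) and by 0.26 in TIGK (SE 0.067, adjusted p = 0.00528). The TIGK call was lost without any 1 of 6 libraries, namely TIGK control replicates 2 (adjusted p = 0.022) and 3 (0.0358), TIGK H2O2 replicates 1 (0.0112), 2 (0.048) and 3 (0.0315) and HaCaT H2O2 replicate 2 (0.012), and with library totals alone as scaling (0.0104) or edgeR's filterByExpr as the filter (0.0116). The responses of IREB2 differed by 0.30 (95% interval 0.101 to 0.498, adjusted p = 0.046).

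ACO1, whose protein is an aconitase while it holds an iron-sulfur cluster and an RNA-binding protein without it, went from 2408, 2534 and 2643 to 2767, 2634 and 2687 normalized counts in TIGK. In HaCaT it went from 560, 646 and 625 to 595, 761 and 712. The groups overlapped in both lines. The values were 0.09 in TIGK (95% interval -0.0693 to 0.255, adjusted p = 0.374) and 0.18 in HaCaT (-0.00224 to 0.359, adjusted p = 0.098).

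The remaining 4 genes passed the limit in neither line. NCOA4 had 7535, 7133 and 7314 normalized counts in untreated TIGK and 7219, 7641 and 6934 after H2O2. In HaCaT it had 12150, 11758 and 12484 and then 12427, 13150 and 13161. The groups overlapped in both lines, and the intervals of the log2 fold change were narrow, -0.123 to 0.0978 in TIGK (adjusted p = 0.878) and -0.0195 to 0.2 in HaCaT (adjusted p = 0.168). The TIGK value, -0.01, changed sign in 7 of 24 alternatives.

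ACSL4 had 5685, 5978 and 5769 normalized counts in untreated TIGK and 5359, 5165 and 5065 after H2O2. In HaCaT it had 6605, 6718 and 7019 and then 6613, 6640 and 6264. The TIGK groups did not overlap and the HaCaT groups did. The log2 fold change was -0.16 in TIGK (SE 0.0503, adjusted p = 0.0176) and -0.06 in HaCaT (SE 0.0501, adjusted p = 0.35). The TIGK value passed the limit with DESeq2 (adjusted p = 0.00925), with upper quartile scaling (0.00995) and without HaCaT H2O2 replicate 3 (0.00879).

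AIFM2 had 948, 990 and 862 normalized counts in untreated TIGK and 942, 1002 and 1054 after H2O2. In HaCaT it had 890, 831 and 836 and then 720, 766 and 707. The groups overlapped in TIGK, and in HaCaT the treated libraries were all lower. The values were 0.10 in TIGK (SE 0.0788, adjusted p = 0.346) and -0.22 in HaCaT (SE 0.0803, adjusted p = 0.0288), and the responses differed by 0.32 (95% interval 0.087 to 0.559, adjusted p = 0.0695). AIFM2 overlaps H2AFY2 on the other strand, whose mean count was 124% of that of AIFM2. Where strand was not used in counting, reads from the shared bases cannot be told apart. H2AFY2 rose in both lines, by 0.47 in TIGK and 0.63 in HaCaT on the log2 scale (adjusted p = 0.000249 and 1.13e-05).

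SLC40A1 was low throughout. In TIGK its raw counts were 49, 60 and 68 in untreated libraries and 81, 92 and 133 after H2O2, or 49.8, 62.2 and 71.1 against 94.0, 87.6 and 105 normalized counts. The treated libraries were all higher, yet the spread at this depth was wide, and the value of 0.65 (SE 0.324, adjusted p = 0.131) did not pass. In HaCaT the raw counts were 0, 0 and 0 and then 0, 0 and 2, so that no fold is given. A count of 0 in a library allows up to 3 counts.

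**Figure D2:**
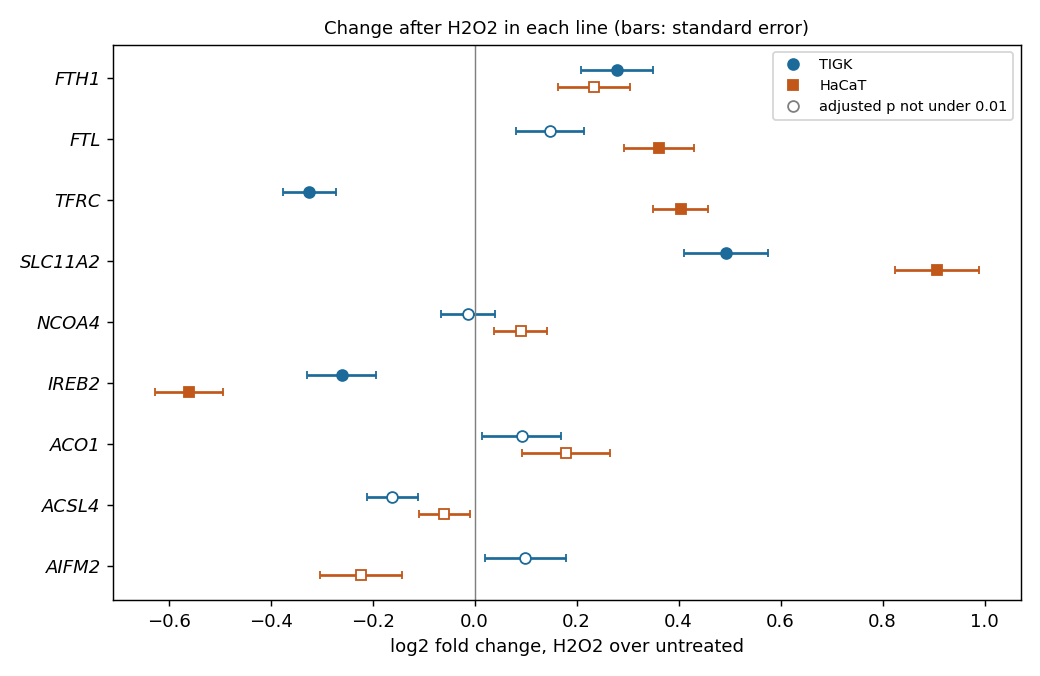
Log2 fold change after H2O2 (horizontal axis) of 9 genes in TIGK (blue circles) and HaCaT (orange squares), with bars for the standard error and open symbols for an adjusted p that is not under 0.01. SLC40A1 is not drawn because HaCaT was at the floor. TFRC lies at -0.32 in TIGK and 0.40 in HaCaT; IREB2 is below 0 and SLC11A2 above 0 in both.

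The widest differences among the 10 genes lay between the lines, in SLC40A1, TFRC, ACO1 and FTL, whereas SLC11A2 and IREB2 had larger values for the response in HaCaT than for the difference between the lines. Untreated TIGK carried more mRNA for uptake (TFRC), storage (FTH1, FTL), export (SLC40A1) and for ACO1, and untreated HaCaT carried more NCOA4. Of the 10 genes, 3 were higher and 6 lower in untreated HaCaT than in untreated TIGK, where 29.1% of all genes tested were higher and 30.8% lower. After H2O2, 2 were higher and 6 lower, where 30.2% of all genes were higher and 29.8% lower. The libraries of the lines did not overlap for 9 genes before and 8 after H2O2, where the same held for 73.3% and 71.3% of all genes. The median log2 fold change of the 10 genes, HaCaT over TIGK, was -0.335 without SLC40A1 (-0.59 with it) before H2O2, against -0.00698 over all genes, and -0.453 (-0.671) after H2O2, against 0.0181. Each of these comparisons uses the same libraries as the responses above, so that they are not independent of them. In bulk RNA, fewer cells that express a gene and less RNA per cell cannot be told apart.

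Untreated TIGK exceeded untreated HaCaT 4.36-fold in TFRC, with 30220 ± 1979 against 6924 ± 179.5 normalized counts (SD, n = 3 per group, adjusted p = 8.89e-17). After H2O2 the excess was 2.63-fold (adjusted p = 3.15e-14). The 4 groups took 4 separate ranges for this gene, in the order TIGK untreated, TIGK treated, HaCaT treated and HaCaT untreated.

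ACO1 was 4.15-fold higher in untreated TIGK (adjusted p = 6.21e-14) and 3.91-fold higher after H2O2 (adjusted p = 1.21e-13). FTL was 3.22-fold and FTH1 1.8-fold higher in untreated TIGK (adjusted p = 7.95e-14 and 2.92e-09), and after H2O2 the values were 2.78-fold and 1.85-fold (5.8e-13 and 1.39e-09). FTH1 and FTL together made up 784 to 806 CPM (counts scaled to library size) in untreated TIGK and 337 to 351 in untreated HaCaT, and 913 to 957 and 397 to 456 after H2O2, in 4 separate ranges.

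SLC40A1 was detected in every TIGK library and in 1 HaCaT library. Over the 3 untreated libraries of each line, 177 counts stood against 0, so that TIGK was at least 69-fold higher with 3 counts over the group as the floor. After H2O2, 306 counts stood against 2, a ratio of 137 (95% exact interval 37.6 to 1140, for counting error only).

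NCOA4 ran the other way. It was 1.66-fold higher in untreated HaCaT (log2 fold change 0.73, adjusted p = 3.58e-10) and 1.78-fold after H2O2 (0.83, adjusted p = 5.29e-11), and no library of either line overlapped those of the other. ACSL4 was 1.17-fold higher in HaCaT before and 1.25-fold after H2O2 (adjusted p = 0.000632 and 1.21e-05), and with library totals alone as scaling the first of these was no longer called (0.0159).

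SLC11A2 and IREB2 differed between the untreated lines and not detectably between the treated ones. SLC11A2 was lower in untreated HaCaT (-0.34, adjusted p = 0.00152), and after H2O2 the value was 0.08 (95% interval -0.0901 to 0.248, adjusted p = 0.396). IREB2 was higher in untreated HaCaT (0.27, adjusted p = 0.00158), and after H2O2 the value was -0.03 (95% interval -0.174 to 0.108, adjusted p = 0.679). Both untreated differences were near the limit when single libraries were left out. That of SLC11A2 was lost without HaCaT control replicate 1 (adjusted p = 0.0115) or TIGK control replicate 2 (0.0108), and that of IREB2 without HaCaT control replicate 1 (0.011) or 3 (0.0127) or TIGK control replicate 1 (0.0134) and with library totals alone as scaling (0.0207). AIFM2 showed the reverse order, with -0.13 between the untreated lines (adjusted p = 0.155) and a lower level in HaCaT after H2O2 (-0.45, adjusted p = 5.34e-05). H2AFY2, its neighbour on the other strand, was lower in HaCaT in both comparisons (-0.43 and -0.27).

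**Figure D3:**
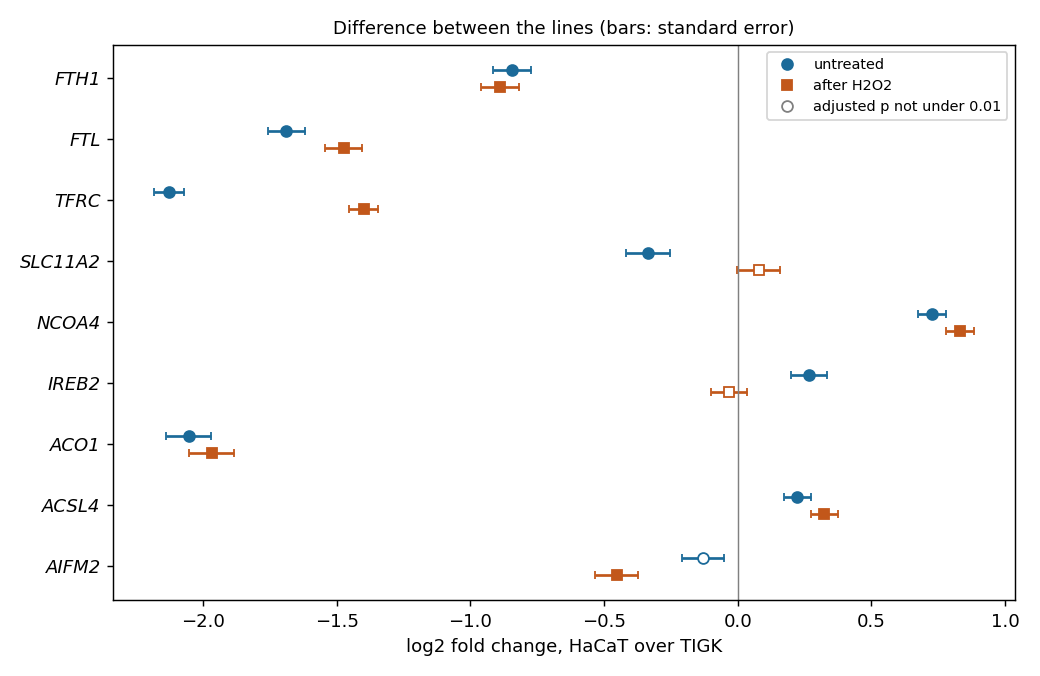
Log2 fold change of HaCaT over TIGK (horizontal axis) for 9 genes, untreated (blue circles) and after H2O2 (orange squares), with bars for the standard error and open symbols for an adjusted p that is not under 0.01. SLC40A1 is not drawn. TFRC, ACO1, FTL and FTH1 lie below 0 and NCOA4 and ACSL4 above 0 in both; TFRC moves from -2.13 to -1.40.

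Levels can be compared between genes only per length, and the order of the ferritin chains depended on the length used. With the gene lengths of the deposited table, FTL stood first in TIGK, with 13000 ± 1198 normalized counts per kilobase untreated and 14410 ± 52.1 after H2O2 (SD, n = 3), and FTH1 second, with 8261 ± 368 and 10030 ± 352. In HaCaT the values were 4600 ± 52.8 for FTH1 and 4036 ± 158 for FTL untreated and 5412 ± 706 and 5188 ± 440 after H2O2, where their libraries overlapped. With the lengths of the MANE Select transcripts, an alternative chosen after the data were seen, FTH1 stood first in all 4 groups, with 13940 ± 621 against 13110 ± 1208 for FTL in untreated TIGK, where their libraries overlapped, and 7762 ± 89.2 against 4068 ± 159.7 in untreated HaCaT. With either length, TFRC was the third in TIGK (3832 ± 251 and 3062 ± 70 with the lengths of the table), while NCOA4 held that place in HaCaT (2974 ± 89.1 and 3166 ± 103). SLC40A1 was last in all 4 groups, with 14.1 and 22.1 in TIGK and 0 and 0.164 in HaCaT.

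Ratios within a library do not depend on the scaling, and comparing one ratio between groups does not depend on the lengths, which set its level alone. The values use the lengths of the table. The FTH1 to FTL ratio per length had a geometric mean of 0.637 in untreated TIGK (range 0.590 to 0.741) and 1.14 in untreated HaCaT (1.10 to 1.19). After H2O2 it was 0.696 (0.666 to 0.712) and 1.04 (0.883 to 1.24). Ranges of the lines were apart in both conditions, while those of treated and untreated cells overlapped in each line (exact permutation p = 0.4 in TIGK and 0.5 in HaCaT, two-sided).

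The ACO1 to IREB2 ratio per length was 0.843 in untreated TIGK (range 0.812 to 0.863) and 1.08 after H2O2 (1.07 to 1.09). In HaCaT it was 0.169 (0.149 to 0.197) and then 0.280 (0.232 to 0.313). It was thus higher after H2O2 in every library of both lines, by 1.28-fold in TIGK and 1.66-fold in HaCaT, each with an exact permutation p of 0.1, the smallest that 3 against 3 libraries allow.

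The TFRC to FTH1 ratio per length, of uptake to storage, went from 0.464 (range 0.442 to 0.477) to 0.305 (0.292 to 0.326) in TIGK. In HaCaT it was 0.191 (0.183 to 0.196) untreated and 0.216 (0.188 to 0.236) after H2O2. The TIGK ranges were apart (exact permutation p = 0.1, the smallest possible) and the HaCaT ranges overlapped (p = 0.3). With 3 libraries a group, none of the 12 comparisons of ratios could reach 0.05.

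**Figure D4:**
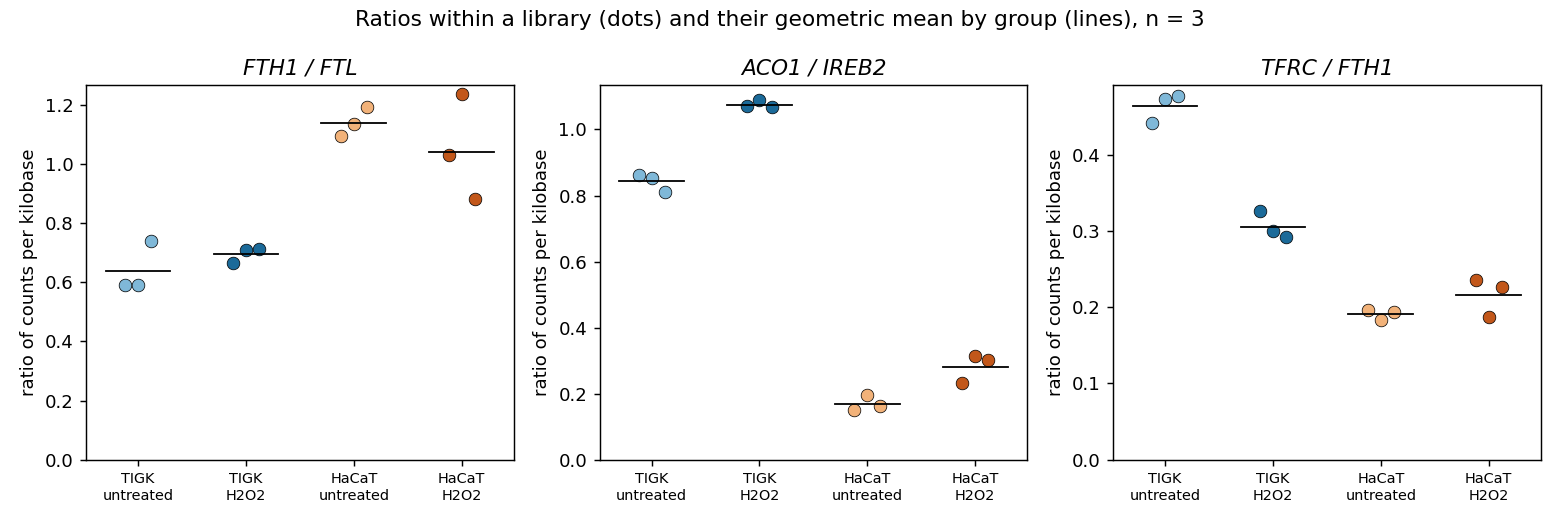
Ratios of counts per kilobase (vertical axes, from 0) in each library (dots), with the geometric mean of 3 libraries per group as a line. FTH1 / FTL is 0.637 and 1.14 in the untreated lines, ACO1 / IREB2 is higher after H2O2 in both lines, and TFRC / FTH1 drops from 0.464 to 0.305 in TIGK.

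The genes with the profile closest to each of the 10 were found from log2 CPM centred over the 12 libraries, as the root mean square difference. They were GPI for FTH1 (0.0744), CALR for FTL (0.0707), FZD7 for TFRC (0.0982), UVRAG for SLC11A2 (0.112), TDRD5 for SLC40A1 (0.168), VAMP7 for NCOA4 (0.0427), KDM5A for IREB2 (0.0376), PARP12 for ACO1 (0.111), CPNE3 for ACSL4 (0.0401) and PHAX for AIFM2 (0.0557). This distance weighs the difference between the lines most, since it is the widest in most profiles. None of the 10 genes was the closest to another of them.

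A wider list of 67 iron and ferroptosis genes gives the surroundings of these 10, and 59 were tested. It was written from general knowledge, but with earlier results of these data known. In TIGK, 7 rose and 8 fell after H2O2, with a median log2 fold change of 0.0736, and in HaCaT 19 rose and 7 fell, with a median of 0.193 without genes at the floor. Over all genes 10.2% rose and 12.9% fell in TIGK and 18.9% and 15.2% in HaCaT, with medians of 0.00842 and 0.0375. The TIGK counts thus lie near the background of the main fit. In both lines the balance over all genes turned with the processing, as given above, so the counts of neither line have a fixed background. Of 13 genes of defence against ferroptosis, 3 rose in HaCaT (GPX4, GSS, GCH1) and 3 fell (SLC7A11, GCLM, MBOAT2). In TIGK, 4 of them fell (SLC7A11, GCLM, SCD, MBOAT2) and none rose. Of these 13 genes, GCH1 alone had responses that differed between the lines past the limit, so the counts do not show that the lines differ. The 14 tested genes of the driving group include PTGS2, which is a marker of ferroptosis. Of them, 4 rose in TIGK (SAT1, PTGS2, VDAC3, BACH1) and 5 in HaCaT (POR, SAT1, PTGS2, VDAC2, VDAC3), and none fell in either line. Of 7 genes of iron-sulfur cluster assembly and binding, NFS1 and CISD2 rose in TIGK and ISCU, NFS1, CISD1, CISD2 and GLRX5 in HaCaT. These groups are small, and their counts are to be read against the shares over all genes above. NFS1 overlaps ROMO1 on the other strand, which held 178% of its mean count. On the log2 scale ROMO1 rose by 0.72 in HaCaT (adjusted p = 0.00113) and had 0.295 in TIGK (adjusted p = 0.153).

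BMP6, a ligand that drives hepcidin in the liver, fell most in both lines, from 224 ± 29.9 to 67.2 ± 13 normalized counts in TIGK and from 2371 ± 113 to 495 ± 43.8 in HaCaT (SD, n = 3, adjusted p = 3.14e-08 and 9.47e-12). SLC7A11, the cystine carrier that feeds glutathione synthesis, fell by 0.94 on the log2 scale in TIGK and 0.61 in HaCaT (adjusted p = 4.3e-09 and 2.1e-06). FLVCR1, described as a heme exporter, fell by 0.62 in TIGK and 0.39 in HaCaT. PTGS2, a prostaglandin synthase used as a marker of ferroptosis, rose 1.91-fold in TIGK and also rose in HaCaT, from 821 ± 94 to 1213 ± 16.6 normalized counts. SAT1, a polyamine-degrading enzyme, rose 1.38-fold in TIGK and 1.69-fold in HaCaT. In HaCaT, GCH1, which makes the precursor of tetrahydrobiopterin, rose 2-fold (adjusted p = 4.84e-06), GPX4, the lipid peroxide reductase, rose 1.5-fold, and STEAP4, a ferric reductase, fell by 0.81 on the log2 scale. In TIGK the GPX4 value was 0.22 (adjusted p = 0.0521), and its responses did not differ between the lines past the limit.

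The copper-dependent ferroxidase HEPHL1 had the widest excess in HaCaT among the listed genes, with 1428 ± 41.6 normalized counts in untreated HaCaT and 18.6 ± 7.29 in untreated TIGK (SD, n = 3). It fell in HaCaT to 504 ± 49.8 (adjusted p = 4.91e-08) and had 21.3 ± 8.93 in treated TIGK. TFR2, the second transferrin receptor, had 669.9 ± 45.5 in untreated TIGK and 1.53 ± 2.65 in untreated HaCaT, and 694 ± 82.5 and 10.2 ± 7.06 after H2O2. HMOX1, the inducible heme oxygenase, had 184 ± 38.8 in untreated TIGK and 11.5 ± 2.69 in untreated HaCaT, and passed the limit after H2O2 in neither line (adjusted p = 0.402 and 0.916). CHAC1, which degrades glutathione, had 817 ± 73.4 in untreated TIGK and 15.1 ± 8.17 in untreated HaCaT. GPX4 was higher in HaCaT before H2O2, with 2275 ± 37.6 against 1327 ± 157.5 normalized counts, and 2.21-fold higher after it (adjusted p = 4.59e-10). ALOX12B, an epidermal lipoxygenase, was 2.59-fold higher in untreated HaCaT (adjusted p = 0.000438). Of the wider list, 20 of the 59 genes tested were higher and 26 lower in untreated HaCaT, and 24 and 22 after H2O2, where 29.1% and 30.8% and then 30.2% and 29.8% of all genes were.

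**Figure D5:**
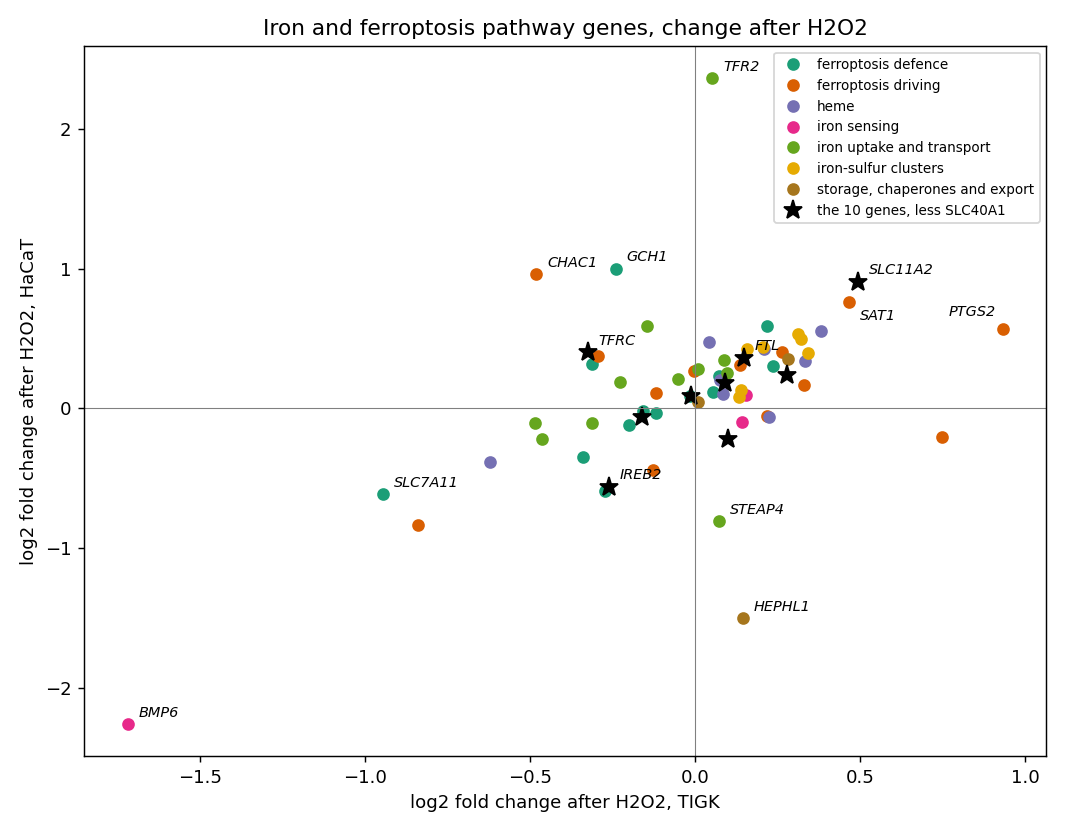
Log2 fold change after H2O2 in TIGK (horizontal axis) and HaCaT (vertical axis) of 58 of the 59 wider-list genes tested, coloured by role, with 9 of the 10 genes as stars; genes at the floor are left out. BMP6 is lowest in both lines, at -1.72 and -2.26, TFRC lies left of and above the origin, and TFR2 at the top rests on very few HaCaT counts.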

How the data were processed

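The authors deposited raw read counts per gene, as whole numbers, for 12 libraries mapped to GRCh38; the study's methods and the submitters' processing notes name HISAT2 2.0.5, StringTie 1.3.3b and featureCounts 1.5.0-p3, and the notes also name HISAT2 2.0.0. The annotation release, the treatment of multi-mapping reads and whether strand was used are not given in the sources used here. Deposited tables of the authors' own comparisons hold fold changes and p-values and were not used. It had 0 rows lacking a gene, and 0 columns of sample values went unused.

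Groups came from the labels; in their treatment field the formula of the added compound runs on from replicate to replicate, while the treatment protocol names H2O2 for all. Counts were fitted in R 4.3.3 with edgeR 4.0.16 (quasi-likelihood test, TMM, 1 mean per group, all 12 libraries; mean raw count of 10 or more; adjusted p under 0.01). Limma 3.58.1 and DESeq2 1.42.0 were loaded beside it, and the latter was run as an alternative. The fit was tested on simulated counts. Ratios were compared by exact two-sided permutation. Python 3.11.15 with matplotlib 3.10.9 made the plots. In each of the 12 replicate pairs the counts differed beyond counting noise (chi-square per degree of freedom 4.36 to 26.9), and intervals on counts cover counting error only.

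The 10 genes and the lists were chosen with earlier results of these data known. Of the wider list, the 3 largest rises and falls per comparison were named, among those past the limit with 100 or more normalized counts on average in the higher group. Alternatives were DESeq2, the groups compared alone, other scalings, filters and limits, no mitochondrial counts, ferritin pseudogenes added, ratios without gene length, a block on replicate numbers and leaving out each library. The use of transcript lengths and the alternatives run on SLC25A37 were chosen after seeing the data.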

Additional observations from a re-analysis of the deposited data

Results flagged for a closer look

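The responses of 6 genes to H2O2, 1 of the 10 and 5 of the 59 tested in the wider list, differed between the lines past the limit, where 2.32% of all genes had a higher and 2.98% a lower response in TIGK (edgeR's quasi-likelihood test of the difference, TIGK minus HaCaT, on the log2 scale, n = 3 libraries per group). TFRC had the difference of -0.73 given above, with a fall in TIGK and a rise in HaCaT. In the wider list, HEPHL1 differed by 1.65 (adjusted p = 0.00313) and CHAC1 by -1.44 (0.00688), and both were scarce in 1 line. The HEPHL1 call was lost with a replicate block (adjusted p = 0.0113) and without TIGK control replicate 1 (0.0124) or TIGK H2O2 replicate 1 (0.0203). The CHAC1 call was lost in 9 of 23 alternatives (adjusted p up to 0.0285), each of which left out 1 library, and was kept when the library left out was HaCaT control replicate 1, HaCaT H2O2 replicate 3 or TIGK control replicate 3. GCH1 differed by -1.24 (0.000112), with a rise in HaCaT and a value of -0.24 in TIGK (adjusted p = 0.127), and was called in all 23 alternatives. HMOX2, the constitutive heme oxygenase, differed by -0.43 (0.00775), with a rise in HaCaT of 0.47, and overlaps NMRAL1 on the other strand, which held 52.8% of its mean count. This call was lost in 16 of 23 alternatives (adjusted p up to 0.0696), among them RLE and upper quartile scaling, no mitochondrial counts, a replicate block and the omission of any library but HaCaT H2O2 replicate 1 or TIGK control replicate 3. SLC25A37, a mitochondrial iron importer that is named here after its values were seen, differed by -0.38 (0.00907), with a fall in TIGK of 0.49. It was lost in 18 of 23 alternatives (adjusted p up to 0.0783), among them every other edgeR scaling and filter and the omission of any library but HaCaT H2O2 replicate 3 or TIGK H2O2 replicate 1. The causes of these differences were not tested.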

How the results depend on the processing

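Of 75 values for named genes, 35 kept their direction and side of the limit under every alternative run, 31 lost a call under at least 1 (22 of them only where a 2-fold limit was added), 5 gained one and 4 changed sign, all 4 of them uncalled values near 0. NCOA4 in the TIGK response was 0.0047 with library totals alone, 0.021 without the filter and 0.022 with filterByExpr, and -0.022 to 0.051 with 1 library left out. SLC11A2 between the treated lines was -0.00024 with upper quartile scaling and -0.031 to 0.10 with 1 library left out. The differences of responses of ACO1 and FTH1 were -0.13 to 0.050 and -0.0072 to 0.22 with 1 library left out. With a 2-fold limit added, the calls among the 10 genes went from 4 to 0 in TIGK, 4 to 0 in HaCaT, 9 to 4 and 8 to 4 between the lines and 1 to 0 for the difference of responses, and those of the wider list from 15 to 1, 26 to 2, 46 to 16, 46 to 17 and 5 to 3. With a limit of 0.05 the difference of responses gave 3 and 13 calls and the TIGK response of the wider list 23. Without the filter the difference gave 2 and 8 calls, and with DESeq2 the wider list gave 9. With 1 library left out the 10 genes had 2 to 5 calls in TIGK, 4 to 5 in HaCaT, 7 to 9 between the untreated lines and 1 to 2 for the difference, where the wider list had 2 to 7. The low TIGK count of 2 came without TIGK control replicate 2, TIGK H2O2 replicate 2 or TIGK H2O2 replicate 3. Without division by gene length the ratios of the untreated and treated groups were 2.64 and 2.41 (HaCaT) and 1.47 and 1.61 (TIGK) for FTH1 to FTL, 0.118 and 0.196, then 0.589 and 0.752 for ACO1 to IREB2, and 0.742 and 0.839, then 1.80 and 1.19 for TFRC to FTH1. With the lengths of the MANE Select transcripts, an alternative added after the data were seen, the same pairs were 1.91 and 1.74, then 1.07 and 1.17 for FTH1 to FTL, 0.1004 and 0.166, then 0.501 and 0.639 for ACO1 to IREB2, and 0.178 and 0.201, then 0.432 and 0.285 for TFRC to FTH1. With ferritin pseudogenes added, TFRC to FTH1 was 0.183 in untreated HaCaT and 0.443 in untreated TIGK. Same-numbered replicates of different groups did not deviate together (correlation -0.0319 to 0.0257, against -0.0225 to 0.0381 for other numbers). With deviations taken from only 3 libraries a group, this cannot decide whether the numbers pair the samples. A replicate block lowered the calls on the difference of responses in the wider list from 5 to 2 and ended the IREB2 call in TIGK (-0.26, adjusted p = 0.0108). Depth limits SLC40A1 in HaCaT.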
